A study of Mus musculus with 8 samples.

Results

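The transcripts described here encode the nuclear subunits of the respiratory chain and ATP synthase, measured in subcutaneous fat of mice given niacin-bound chromium (NBC) or water. They are the genes whose array symbol begins with Ndufa, Ndufb, Ndufc, Ndufs, Ndufv, Uqcr, Cox4 to Cox8 or Atp5, or is Sdha to Sdhd, Cyc1 or Cycs; assembly factors named Ndufaf and pseudogene symbols were left out. Of 18193 genes with a probe set naming 1 gene, 84 qualified: 36 of complex I, 4 of complex II, 9 of complex III, cytochrome c, 14 of complex IV, 17 of ATP synthase and 3 tissue isoforms of complex IV, set apart. Each gene was read from its brightest such probe set, and 81 passed the filter on dim signals. Cox4i2, Cox7b2 and Ndufb4 did not, so counts over the 81 are not counts over all 84. Ndufb4 read 31.8 to 108 in placebo mice and 116 to 222 in NBC mice on its dim probe set, without overlap. Of all genes above the filter, 1.7% were higher without overlap. In a limma fit without the filter, the Ndufb4 log2 difference was 1.07 (unadjusted p = 0.0104, adjusted p = 0.802).

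The mice were male, given as 8 weeks old, and called diabetic in the title of the study; the labels name neither strain nor genotype. The 4 NBC mice (5, 9, 11 and 13) received 10 mg/kg niacin-bound chromium, a chromium supplement, in water by oral gavage on 5 days a week for 10 weeks. The 4 placebo mice (6, 8, 10 and 14) received the same volume of water on that schedule, and each mouse gave 1 array. In bulk fat, fewer cells of a type and less RNA per cell cannot be told apart.

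Complexes I, III and IV pass electrons from NADH and ubiquinol to oxygen and pump protons across the inner mitochondrial membrane; complex II, succinate dehydrogenase, feeds electrons from the citric acid cycle into the same ubiquinone pool without pumping. Cytochrome c carries electrons from complex III to complex IV, and ATP synthase uses the proton gradient to make ATP. Brown fat is rich in this machinery and can let the gradient run down through Ucp1, while white fat holds less of it. NRF1, GABP, ERR and YY1 are transcription factors known to act on promoters of many of these genes.

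The promoters were set side by side because the members share that regulation and because Cox8b is used in fewer tissues than its partner Cox8a. RefSeq promoter windows of build GRCm38.p6, 250 bases before to 50 bases after the annotated start, were matched for 68 of the 84 genes. The windows chosen for print are those of the complex II subunits that had one, of Cycs, and of the Cox8a and Cox8b pair. They are written 5′ to 3′ on the strand of the gene, all of them on the minus strand except Sdhb, and capitals mark motif matches on either strand. The motifs searched were GCGCATGCG (NRF1), CCGGAAG (GABP), AAGGTCA (ERR), AAGATGGCG (YY1) and the E-box CAGCTG of muscle genes, which is the only palindrome among them. The NRF1 motif is nearly its own reverse complement, so both strands can match almost the same bases.
Sdha, chr13:74350191-74350490: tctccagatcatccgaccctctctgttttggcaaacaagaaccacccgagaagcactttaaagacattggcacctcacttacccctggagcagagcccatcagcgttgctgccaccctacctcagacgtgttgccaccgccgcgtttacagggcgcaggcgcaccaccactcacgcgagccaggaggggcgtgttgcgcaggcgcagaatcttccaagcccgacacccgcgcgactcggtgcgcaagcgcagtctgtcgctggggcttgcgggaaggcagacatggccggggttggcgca
Sdhb, chr4:140961021-140961320: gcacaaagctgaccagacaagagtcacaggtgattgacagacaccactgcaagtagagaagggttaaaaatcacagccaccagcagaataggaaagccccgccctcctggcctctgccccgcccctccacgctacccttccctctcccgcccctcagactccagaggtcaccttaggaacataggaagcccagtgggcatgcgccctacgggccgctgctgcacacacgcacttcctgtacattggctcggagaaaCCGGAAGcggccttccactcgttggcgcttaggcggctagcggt
Sdhd, chr9:50603800-50604099: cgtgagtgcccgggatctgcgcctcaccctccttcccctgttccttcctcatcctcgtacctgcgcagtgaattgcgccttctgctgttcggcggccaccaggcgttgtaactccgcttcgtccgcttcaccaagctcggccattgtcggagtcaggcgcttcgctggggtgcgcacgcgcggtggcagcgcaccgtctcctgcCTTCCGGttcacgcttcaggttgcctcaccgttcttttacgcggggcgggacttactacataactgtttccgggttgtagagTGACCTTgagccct
Cycs, chr6:50566520-50566819: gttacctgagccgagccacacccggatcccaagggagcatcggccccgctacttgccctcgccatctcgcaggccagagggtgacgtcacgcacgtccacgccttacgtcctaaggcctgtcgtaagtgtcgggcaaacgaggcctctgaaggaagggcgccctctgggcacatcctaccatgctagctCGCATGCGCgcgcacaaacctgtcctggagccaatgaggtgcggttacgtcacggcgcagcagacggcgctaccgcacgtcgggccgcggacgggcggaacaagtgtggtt
Cox8a, chr19:7217567-7217866: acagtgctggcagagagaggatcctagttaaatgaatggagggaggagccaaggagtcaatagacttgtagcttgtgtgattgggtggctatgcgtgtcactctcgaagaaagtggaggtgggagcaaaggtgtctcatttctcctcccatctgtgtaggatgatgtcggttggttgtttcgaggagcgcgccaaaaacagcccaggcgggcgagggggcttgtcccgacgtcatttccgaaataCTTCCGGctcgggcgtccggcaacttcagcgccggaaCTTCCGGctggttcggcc
Cox8b, chr7:140900397-140900696: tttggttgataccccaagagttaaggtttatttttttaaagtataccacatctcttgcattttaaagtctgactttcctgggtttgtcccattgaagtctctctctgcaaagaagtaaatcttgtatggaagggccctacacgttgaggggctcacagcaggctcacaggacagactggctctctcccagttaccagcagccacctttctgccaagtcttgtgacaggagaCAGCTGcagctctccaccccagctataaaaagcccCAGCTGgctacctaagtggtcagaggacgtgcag
The Cycs window holds an NRF1 match 61 to 53 bases before the start. Sdhb has a GABP match 7 to 13 bases after it, Sdhd a GABP match 46 to 40 bases before it and an ERR match 37 to 43 bases after it, and the Sdha window holds none of the 5 motifs. Cox8a holds 2 GABP matches and 19 CpG dinucleotides. Cox8b holds no GABP match, 2 E-boxes and 2 CpG dinucleotides. Across the 68 windows, GABP matched 23.5%, NRF1 11.8%, ERR 11.8% and YY1 7.35%, against 9.12%, 1.81%, 4.66% and 1.49% of the 27025 windows of the whole table. The E-box matched 8.82% of the members and 16.1% of all windows. Median GC content was 58.8% in the members and 52.7% in all windows, so the windows also differ in base composition. All 5 YY1 matches, in Ndufa9, Ndufc1, Ndufs4, Ndufs7 and Atp5j2, lay after the start.

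All arrays had the same scaling, with a trimmed mean signal of 1500.01, and median signals ran from 285.5 to 329.6. Adipocyte markers were bright on every array: the summed signal of the 10 measured ran from 645616 to 785999.6 in placebo mice and from 645423 to 741318 in NBC mice. Skeletal muscle markers differed widely between mice: the summed signal of the 18 measured of 20 ran from 9537 to 30786 in placebo mice, was 23738 in NBC mouse 9 and ran from 184954 to 203608.5 in NBC mice 5, 11 and 13. All 18 lay above 0 in the NBC comparison, with a median log2 difference of 2.91, and Myh2 and Neb were below the filter. All 10 macrophage markers also lay above 0 (median 0.21), and 9 of 10 adipocyte and 3 of 6 endothelial markers below it. The part of muscle RNA in the differences between groups was not tested.

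Transcripts of the respiratory chain and ATP synthase differed little between NBC and placebo mice. None of the 81 members above the filter passed an adjusted p of 0.05 in limma (smallest 0.781), and none reached an unadjusted p under 0.05, against 0.0% and 5.44% of the 11662 genes tested (6.22% of probe sets at the unadjusted p). Differences are log2 of (signal + 26), NBC minus placebo: 50 of 81 members lay below 0 (61.7%, against 51.5% of all genes), and the median was -0.027 (all genes -0.0064). Without the tissue isoforms, 78 members ran from -0.27 for Cox6b2 to 0.22 for Ndufc1. The groups did not overlap for 3 members, Sdhc, Uqcrfs1 and Ndufa9, all lower in NBC (3 of 81; 2.23% of all genes), and for none higher (1.7% of all genes; 3.93% in either direction). The majority below 0 was lost without placebo mouse 6 (39 of 81) or NBC mouse 9 (36 of 81). Leaving out 1 mouse, which eases the criterion of no overlap, gave 3 to 7 members lower, and 7 higher without mouse 9 and 0 higher without any other; 3 members reached an unadjusted p under 0.05 without mouse 9 and 0 without any other.

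The 95% interval lay within 0.5 log2 units of 0 on both sides for 70 of 81 members. The median standard error was 0.13 in the members and 0.16 over all genes, and the median SD within groups was 0.14 against 0.22. The 11 wider intervals included all 3 tissue isoforms and dim genes such as Cox6b2, a testis isoform, and Cox8c. Bright members were also among them: Ndufs8 (-0.21 to 0.57), Ndufc1 (-0.23 to 0.67), Ndufa5 (-0.30 to 0.53) and Atp5md (-0.55 to 0.47).

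**Figure D1:**
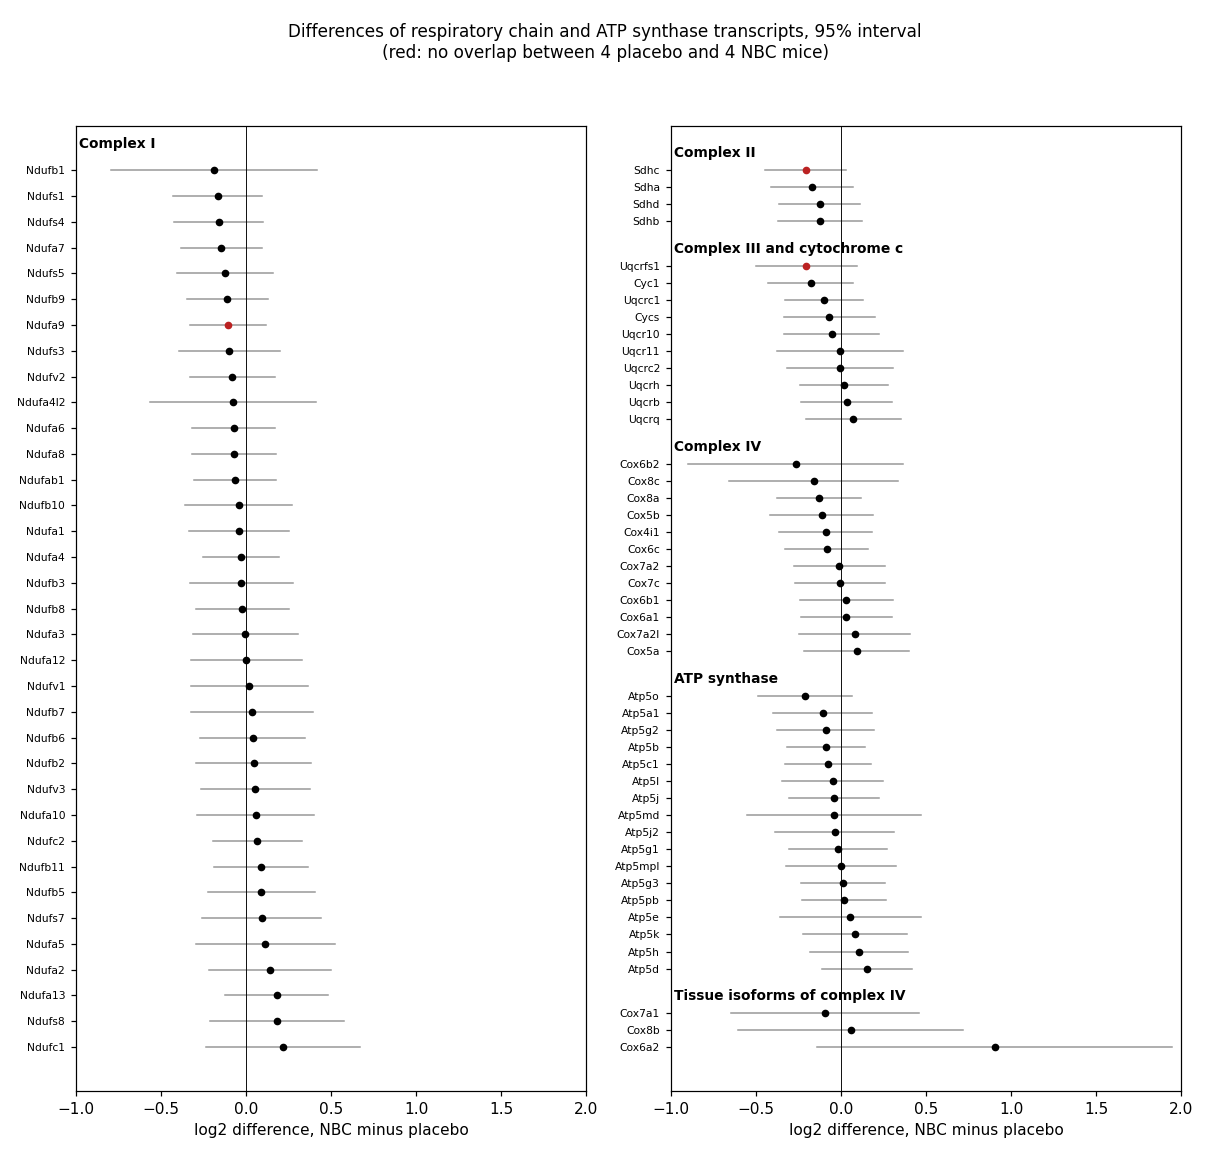
Log2 difference (NBC minus placebo, horizontal axis) with its 95% interval for the 81 members above the filter, by complex, from limma on 4 mice per group. Every interval crosses 0, and the 3 genes whose groups did not overlap, Ndufa9, Sdhc and Uqcrfs1 (red), all lie to the left.

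Succinate dehydrogenase was the complex whose subunits all lay on 1 side: all 4 were lower in NBC, with a median of -0.15, though none passed the test. Sdhc, a membrane anchor that helps bind ubiquinone, had signals of 14798, 15146, 15288 and 15972 in the placebo mice 6, 8, 10 and 14, against 12319, 14552, 13173 and 13030 in the NBC mice 5, 9, 11 and 13. Every NBC mouse was below every placebo mouse, with mouse 9 closest to them. The signal averaged 15301 ± 492 with placebo against 13269 ± 934 with NBC (SD, n = 4 each), which gave a log2 difference of -0.21 ± 0.11 (SE; adjusted p = 0.781). Sdha, the flavoprotein that oxidises succinate, read 28100, 26130, 27827 and 24713 in placebo mice and 23298, 25247, 24036 and 22146 in NBC mice, so 3 of 4 NBC mice lay below all placebo mice (-0.17 ± 0.11 (SE), adjusted p = 0.811).

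The other subunits overlapped more. Sdhb, the iron-sulfur subunit, read 24695, 23394, 22069 and 21876 in placebo mice and 20441, 19489, 22413 and 22250 in NBC mice, with mice 11 and 13 inside the placebo range (-0.12 ± 0.11 (SE), adjusted p = 0.859). Sdhd, the other membrane anchor, read 11525, 10905, 10962 and 11350 in placebo mice and 9619, 11291, 10139 and 10009 in NBC mice, with mouse 9 alone inside it (-0.13 ± 0.10 (SE), adjusted p = 0.849). Mouse 9 was also the NBC mouse whose summed muscle markers lay within the placebo range, and without it the complex II median was -0.19. A dimmer Sdhc probe set went the other way at 0.093, Sdha had others at -0.021 and 0.19, and a dimmer Sdhd probe set was at -0.27. With the mean of all probe sets per gene, the complex II median was -0.090.

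**Figure D2:**
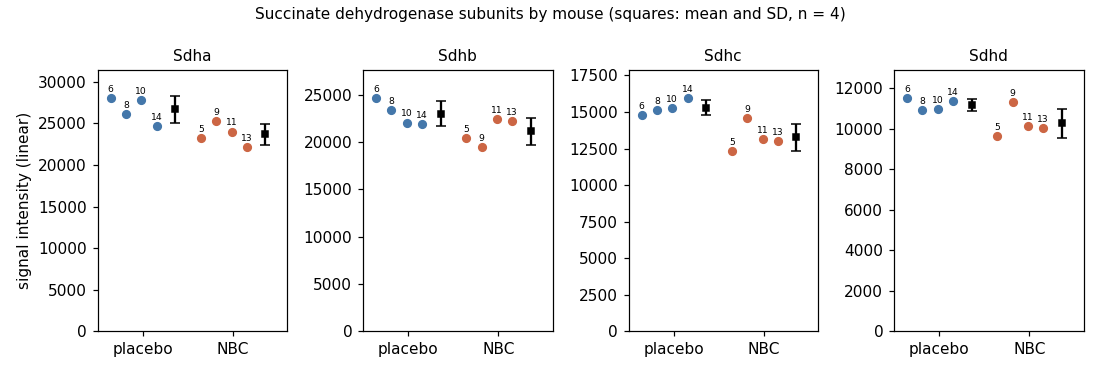
Signal (vertical axis, linear, from 0) of the 4 succinate dehydrogenase subunits in each mouse, numbered, with the mean and SD of 4 mice as squares. The NBC mice lie below all placebo mice for Sdhc, where mouse 9 reads 14552 against a lowest placebo value of 14798, and overlap them for the other subunits.

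In complex I, which oxidises NADH, 19 of 35 members lay below 0 and 16 above, with a median of -0.020. That median rested on single mice: it was 0.014 without placebo mouse 6 and 0.059 without NBC mouse 9, and -0.069, -0.037, -0.0064 and -0.0039 without NBC mouse 5, placebo mouse 14, placebo mouse 8 and NBC mouse 13. Ndufa9, a subunit near the ubiquinone site, had no overlap: 16807, 17068, 16319 and 16125 in placebo mice against 14802, 15607, 15510 and 15741 in NBC mice. The difference was small beside its error, at -0.11 ± 0.098 (SE; adjusted p = 0.866). Ndufs1, the largest subunit and a carrier of iron-sulfur clusters, differed by -0.17 ± 0.12 (SE), with mouse 9 at 7359 inside the placebo range of 6807 to 7661. Ndufs4 and Ndufa7, accessory subunits, differed by -0.16 and -0.14.

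The largest positive differences belonged to Ndufc1, at 0.22 ± 0.20 (SE), Ndufs8, an iron-sulfur subunit, at 0.18, and Ndufa13, also known as Grim19, at 0.18. For Ndufc1, mouse 5 read 23933 and mouse 9 read 12329, above and below the placebo range of 13847 to 18081. NBC mice were thus spread on both sides of the placebo group. Ndufa1, a small accessory subunit and the brightest of the complex, differed by -0.040. The 6 measured core subunits, the conserved catalytic set, split 3 and 3, with a median of -0.030. Ndufa4, counted here by its name although it is now placed in complex IV, read 26512 to 28460 in placebo mice and 25990 to 27950 in NBC mice.

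In complex III, 6 of 9 members lay below 0, with a median of -0.0057, which was 0.0050 without placebo mouse 6, 0.070 without NBC mouse 9 and between -0.096 (without NBC mouse 5) and -0.011 without any other mouse. Uqcrfs1, the Rieske iron-sulfur protein, read 15510, 16721, 16190 and 15720 in placebo mice and 11150, 14934, 15113 and 14930 in NBC mice. No NBC mouse reached the placebo range, but mouse 5 set most of the difference of -0.20 ± 0.13 (SE; adjusted p = 0.814): without it the value was -0.096. Cyc1, cytochrome c1, differed by -0.18 ± 0.11 (SE), with NBC mice between 20230 and 21342 and placebo mice between 21135 and 26500. Uqcrc1, a core protein, differed by -0.10, Uqcrb, the brightest, by 0.034, and Uqcrq by 0.073. Cycs, somatic cytochrome c, differed by -0.070 on its brightest probe set and by -0.27 on a second one (unadjusted p = 0.0268 in limma), where the groups did not overlap, and by 0.028 on the remaining one. That second probe set is 1 of 72 other member probe sets above the filter. Among these, 1 each of Cox5b (-0.21), Ndufb6 (-0.12) and Ndufc2 (-0.18) also had no overlap. Over all genes, 2.23% were lower without overlap.

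Complex IV, cytochrome c oxidase, had 8 of 12 members below 0 and a median of -0.047, which was 0.0046 without placebo mouse 6, -0.011 without NBC mouse 9 and -0.080 without NBC mouse 5. Cox6b2 lay lowest, at -0.27 ± 0.28 (SE), on signals of 252 to 508 in placebo mice and 237 to 497 in NBC mice. Among bright members, Cox8a differed by -0.13 ± 0.11 (SE), Cox5b by -0.11, Cox6c by -0.084, Cox6a1 by 0.032 and Cox5a, the highest, by 0.092. Cox7c was read from a dim probe set, at 422 ± 8.41 and 422 ± 52.0 (SD, n = 4 each), so its value rests on a weak signal. In ATP synthase, 11 of 17 members lay below 0, with a median of -0.035, which was 0.015 without placebo mouse 6, 0.022 without NBC mouse 9, -0.0072 without NBC mouse 13 and -0.015 without placebo mouse 8. Atp5o, the stalk subunit that confers oligomycin sensitivity, differed by -0.21 ± 0.12 (SE; adjusted p = 0.805): placebo mice read 35479, 34494, 33402 and 32431 and NBC mice 32282, 26505, 32981 and 26218. Mice 9 and 13 were well below the rest, and mice 5 and 11 were close to the placebo mice. A dimmer Atp5o probe set went the other way, at 0.085.

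The F1 part of ATP synthase, which holds its catalytic sites, had no common direction: of 5 subunits, 3 lay below 0 and 2 above. Atp5a1, its alpha subunit, differed by -0.11 and Atp5b, its beta subunit, by -0.087. Atp5d, its delta subunit, differed by 0.15 ± 0.12 (SE), with mouse 9 at 23403 below the placebo range of 24585 to 24933 and mice 5, 11 and 13 between 27881 and 30290 above it. A second Atp5d probe set read -0.047. Atp5g3, a copy of the membrane ring subunit and the brightest of the complex, differed by 0.013. A second Atp5a1 probe set read 0.34 (unadjusted p = 0.0474 in limma), the only opposite-signed other probe set of a member to reach an unadjusted p under 0.05.

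NBC mice were spread more widely in these transcripts than placebo mice. Over the 78 members, the median log2 deviation from each gene's mean was 0.064, 0.018, -0.010 and -0.0086 in placebo mice 6, 8, 10 and 14. The NBC mice 5, 9, 11 and 13 had medians of 0.14, -0.17, 0.036 and -0.046. Mice 5 and 9 thus lay on opposite sides of all placebo mice. Mouse 9 was below every placebo mouse for 53 of 78 members (67.9%, against 24.0% of all genes), and mouse 5 above every one for 40 (51.3%, against 25.5%). Placebo mouse 6, set against the other 3 placebo mice, was above every one for 39 of 78 (22.9% of all genes).

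The spread of mice 5 and 9 was not shared by complex II. Complex I had medians of 0.21 in mouse 5 and -0.22 in mouse 9, and placebo mice lay between -0.021 and 0.030. Complex II had -0.13 in mouse 5, its lowest value, and 0.020 in mouse 9, its highest among NBC mice. A ratio of Gapdh signals from 3′ and 5′ probe sets, which reflects RNA integrity and labelling, ran from 0.924 to 1.04 in placebo mice and was 1.47, 0.844, 1.28 and 1.11 in NBC mice 5, 9, 11 and 13. Mouse 5 was thus highest and mouse 9 lowest in that ratio as in complex I. Mouse 13 was above every placebo mouse in the ratio but below every one in complex I, at -0.053. The part of the ratio in the result was not tested. Without mouse 9, 36 of 81 members lay below 0 and the median over 78 was 0.024; without mouse 5, 67 did and it was -0.074.

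**Figure D3:**
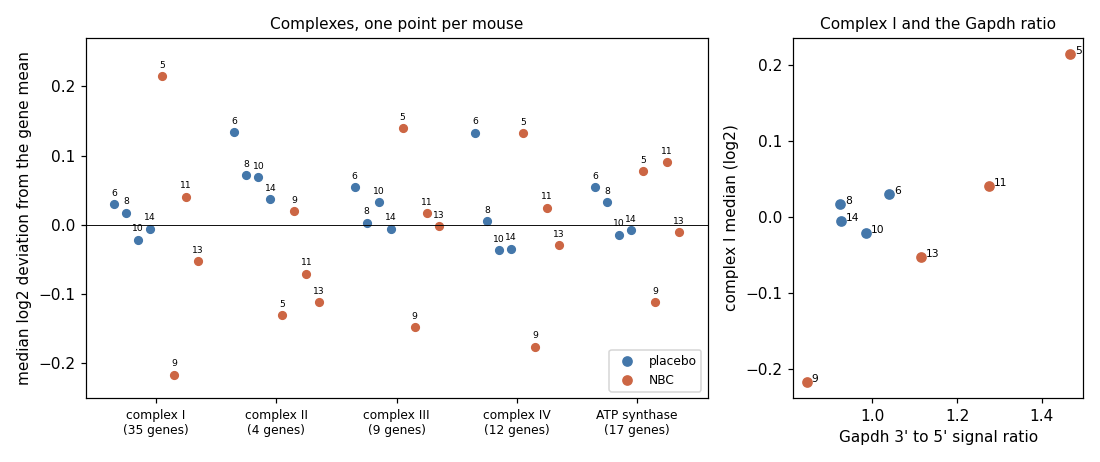
Left, median log2 deviation of the subunits of each complex from their gene means (vertical axis) in each mouse, numbered; right, the complex I value against the Gapdh 3′ to 5′ signal ratio. Mice 5 and 9 lie apart for complex I, at 0.21 and -0.22, and have the highest and lowest ratios, 1.47 and 0.844.

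Cox6a2, Cox7a1 and Cox8b are isoforms of complex IV subunits used mainly by striated muscle, and the last pair also by brown fat. Cox6a2 read 802, 512, 662 and 373 in placebo mice and 1448, 362, 1562 and 1620 in NBC mice 5, 9, 11 and 13. Mice 5, 11 and 13 were above every placebo mouse, and mouse 9 below every one. The signal averaged 587 ± 185 with placebo against 1248 ± 595 with NBC (SD, n = 4 each), which gave a log2 difference of 0.90 ± 0.46 (SE; adjusted p = 0.781). A dimmer Cox6a2 probe set, below the filter, read 33.6 to 72.6 in placebo mice and 460, 32.2, 365 and 298 in those NBC mice. Its log2 difference was 1.63 in the limma fit without the filter (unadjusted p = 0.0324, adjusted p = 0.919). Ckm, muscle creatine kinase, was also high in mice 5, 11 and 13: it read 279, 648, 1373 and 310 in placebo mice, 1081 in mouse 9, and 18305, 21901 and 15116 in mice 5, 11 and 13. Without mouse 9 the log2 difference of Cox6a2 was 1.41.

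The groups overlapped for Cox7a1 and Cox8b, and for Cox7a1 every NBC mouse lay inside the placebo range. Cox7a1 read 2312, 2237, 1271 and 2048 in placebo mice and 2248, 1278, 2203 and 1638 in NBC mice (-0.093 ± 0.24 (SE)). Cox8b read 4526, 3688, 2804 and 3606, then 6244, 2323, 4424 and 3089 (0.058 ± 0.29 (SE)), with mouse 5 above and mouse 9 below the placebo range. Placebo mouse 10 and NBC mouse 9 were lowest in their groups for both. Ucp1, the brown fat uncoupler, read 3819, 3754, 1408 and 4061 in placebo mice and 838, 1199, 796 and 2078 in NBC mice (-1.39 ± 0.40 (SE), unadjusted p = 0.00725, adjusted p = 0.73 in limma). Cidea, a lipid droplet protein of brown fat, had no overlap, at 1188 to 2099 in placebo mice and 675 to 875 in NBC mice. It was the only 1 of the 7 brown fat markers measured without overlap (2.23% of all genes, lower). Of the 7, 4 lay below 0 and 3 above. Dio2 and Zic1, also on that list, were below the filter. In the fit without the filter their log2 differences were 0.73 and 0.85, both higher in NBC mice.

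The difference between each isoform and its partner was set against the group labels in an exact permutation test (two-sided, 70 splits), whose smallest possible p is 0.0286. Cox6a2 minus Cox6a1 was 0.87 log2 units higher in NBC mice (exact p = 0.143, 0.429 adjusted over 3 pairs), and 1.36 without mouse 9. Cox7a1 minus Cox7a2 differed by -0.083 (exact p = 0.743) and Cox8b minus Cox8a by 0.19 (exact p = 0.714, both 0.743 adjusted). No pair passed the threshold, and the SD of these values within NBC mice reached 0.98 for the Cox6a pair.

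**Figure D4:**
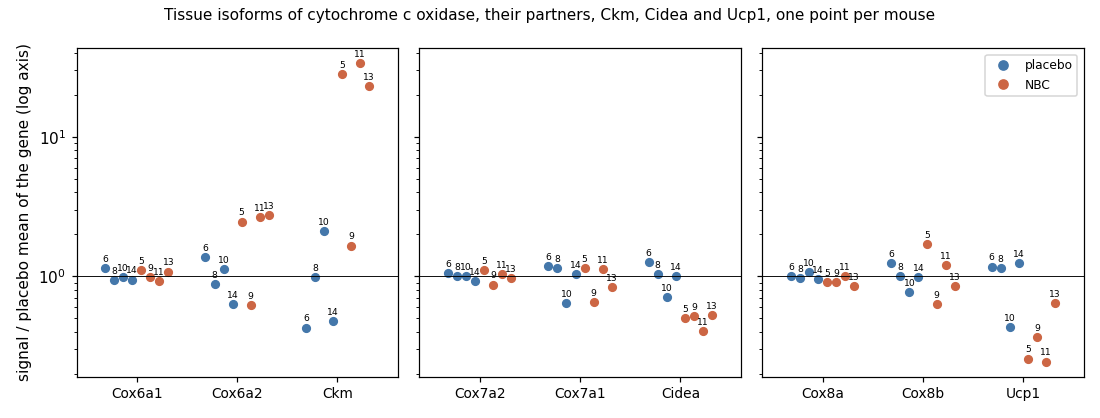
Signal of each gene in each mouse, numbered, divided by the mean of the 4 placebo mice (vertical log axis), for the tissue isoforms, their partners, Ckm, Cidea and Ucp1. The partners stay close to 1 in both groups, and NBC mice 5, 11 and 13, but not mouse 9, stand above the placebo mice for Cox6a2 and Ckm.

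Many members had further probe sets, and these often differed in sign. Of 45 members with other probe sets above the filter, 32 had at least 1 of opposite sign. Affymetrix marks probe sets that can pick up several transcripts or related sequences with _a, _s or _x, and those with a plain _at were designed to be unique. Of 69 plain member probe sets, 57 lay below 0 (82.6%, median -0.081), against 39 of 84 marked ones (46.4%, median 0.019). Over all probe sets above the filter that name 1 gene, the shares below 0 were 54.2% of plain and 51.2% of marked ones. Read from plain probe sets only, 61 members could be measured, 52 lay below 0 and none passed an adjusted p of 0.05; this reading was chosen after seeing the data. On the 66 plain member probe sets without tissue isoforms, median deviations ran from -0.0043 to 0.082 in placebo mice. They were 0.051, -0.13, 0.025 and -0.057 in NBC mice 5, 9, 11 and 13, so mice 5 and 11 lay inside the placebo range. On the 84 marked ones, placebo mice ran from -0.028 to 0.028. The same NBC mice had 0.18, -0.20, 0.065 and -0.034.

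**Figure D5:**
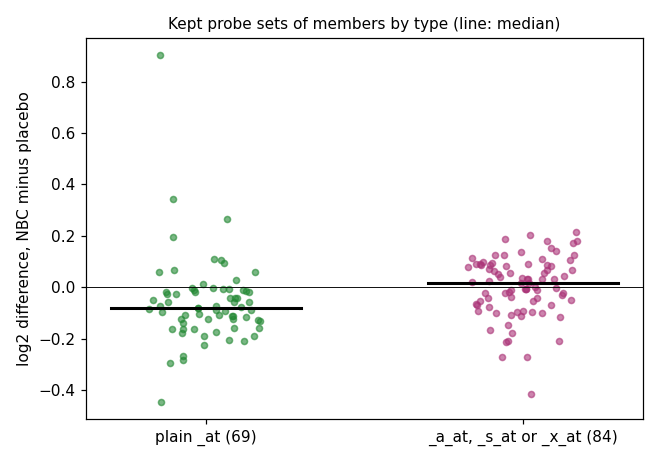
Log2 difference (NBC minus placebo, vertical axis) of every member probe set above the filter, split into plain and marked probe sets, with a line at the median. Of the plain ones, 57 of 69 lie below 0, and of the marked ones 39 of 84; the highest point is Cox6a2 at 0.90.

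Genes that build or serve the chain were mostly below 0 as well (all genes, 51.5%), also without any call at the adjusted p of 0.05. Of 43 assembly factors measured, 27 lay below 0 (median -0.036), 1 reached an unadjusted p under 0.05 downward (2.71% of all genes) and none upward (2.73%). Their median log2 deviation per mouse ran from -0.0098 to 0.046 in placebo mice. NBC mice 5 and 11 lay above every placebo mouse, at 0.077 and 0.052. NBC mice 9 and 13 lay below every one, at -0.078 and -0.12. The groups did not overlap for 3 of the 43, 2 lower and 1 higher in NBC (2.23% and 1.7% of all genes). Ndufaf3, a complex I assembly factor, differed by -0.25 and Sdhaf3, a complex II factor, by -0.26, each without overlap, Ndufaf4 by 0.25 without overlap the other way, and Tmem70, which helps assemble ATP synthase, by -0.29. Of 18 regulators of mitochondrial biogenesis, 13 lay below 0 (median -0.12) and none reached that p; Ppargc1a, the coactivator that drives the programme, differed by -0.35 ± 0.18 (SE), Polg by -0.17 and Esrra by -0.22. The only mitochondrially encoded subunit measured, ND5, overlapped at 29335 to 46788 in placebo mice and 23995 to 42857 in NBC mice.

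Of 18 genes of coenzyme Q synthesis and electron entry, 13 lay below 0 (median -0.050). The groups did not overlap for 3 of the 18, 2 lower and 1 higher in NBC (2.23% and 1.7% of all genes). Etfdh, which passes electrons from fat oxidation to ubiquinone, differed by -0.27 and its donor subunit Etfa by -0.22, while Coq4 differed by 0.31 (unadjusted p = 0.0424 in limma). Of 12 genes organising cristae and supercomplexes, 10 lay below 0 (median -0.062). By mouse, their median log2 deviation was 0.061, -0.11, 0.0006 and -0.20 in NBC mice 5, 9, 11 and 13. Placebo mice ran from -0.0018 to 0.15, so NBC mice 5 and 11 lay inside that range. Only 1 of the 12, Apool, had no overlap, at 3631 to 4268 in placebo mice and 3040 to 3575 in NBC mice. Its difference was -0.29 (unadjusted p = 0.0299 in limma). Chchd3 differed by -0.24 and Apoo by -0.19, both subunits of the cristae junction complex. Of 11 carriers and uncouplers, 7 lay below 0 (median -0.033), with Ucp1 far the lowest, the dicarboxylate carrier Slc25a10 at -0.20 and the aspartate-glutamate carrier Slc25a12 at 0.22.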

How the data were processed

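Total RNA from subcutaneous fat of 8 mice was hybridised to 1 array each. The authors deposited 1 table of signal intensity values, linear, which came from MAS5 (per the submitters' processing notes); no version or batch is named, and the number of arrays limits the precision. Per the array annotation, 34945 of 45101 probe sets name 1 gene, 932 several and 9160 none; 64 controls were left out. All 84 members matched RefSeq by Entrez number.

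Signals were put on a log2(signal + 26) scale, which understates changes of dim genes, and 22519 probe sets with a mean at or above the median (signal 275) were tested with limma 3.58.1 (R 4.3.3; lmFit, eBayes, two-sided, Benjamini-Hochberg over all kept), checked on simulated data. No probe set passed an adjusted p of 0.05; 1400 (6.22%) reached an unadjusted p under 0.05. Members, lists and tests were chosen with earlier results of these data known; the E-box was added after the data were seen. Named genes are, per complex, the 4 of smallest p, the brightest and the highest. Added to these are members without overlap, the isoform pairs and members with an opposite probe set at an unadjusted p under 0.05. The 3 of smallest p per pathway list are also named. Ndufs8, Ndufa4, Ndufa5, Atp5md, Cox7c, Cox8c, Tmem70, Dio2, Zic1 and some other probe sets were named after their values were seen. Those probe sets belong to Cycs, complex II, Atp5d, Atp5o, Cox5b, Cox6a2, Ndufb6 and Ndufc2. Each mouse is 1 sample. Alternatives were other pseudocounts, filters, normalizations, weights and probe set rules, and leaving out each mouse.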

Additional observations from a re-analysis of the deposited data

Results flagged for a closer look

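Of 76 groups of 4 mice examined, 2 held a mouse whose gap to the nearest other mouse, as a share of the group's range on the log2 scale, was above Dixon's 95% critical value for 4 samples, a rule that chance meets in about 1 group in 20. In NBC mice, Cox6a2 read 362.3 in mouse 9 and 1448 to 1620 in the other mice. Uqcrfs1 read 11150 in NBC mouse 5 and 14930 to 15113 in the other NBC mice (mouse 5 unrounded, 11149.7).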

How the results depend on the processing

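Under 17 other settings and 1 more (plain probe sets only) chosen after seeing the data, no member passed an adjusted p of 0.05 in limma, and members below 0 ranged from 36 to 67. Over all probe sets, 0 passed that threshold except without NBC mouse 9, where 18 did; the range over left-out mice was 0 to 18. Of 50 results under these alternatives, 830 of 887 values kept their direction and side of the threshold or moved by less than the limit used. That limit was a factor of 1.5 for counts and 1 SD between mice within groups for medians (0.095 for the 78 members). It is wide: 36 members below 0, against 50 as reported, counted as unmoved. Sign changed in 31 values of single genes or isoform pairs, and medians over members also crossed 0. Leaving out 1 mouse gave medians of -0.074 to 0.024 over 78 members, -0.069 to 0.059 in complex I, -0.19 to -0.13 in complex II, -0.096 to 0.070 in complex III, -0.080 to 0.0046 in complex IV and -0.053 to 0.022 in ATP synthase. It gave Cox6a2 0.71 to 1.41, Cox6a2 minus Cox6a1 0.65 to 1.36, Cox8b -0.19 to 0.29, Cox7a1 -0.29 to 0.068, Cox8b minus Cox8a -0.057 to 0.41 and Cox7a1 minus Cox7a2 -0.28 to 0.014; the signs of the Cox7a1 and Cox8b values rest on single mice.

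Other members changed sign too. With quantile normalization Atp5g3 was -0.014, with centred arrays Cox7a2 was 0.0050, and with array weights Cox7a2 was 0.022. With the mean of a gene's probe sets, Sdha was 0.00060, Uqcrb -0.041, Uqcrq -0.042, Cox6c 0.021, Cox6a1 -0.041 and Atp5a1 0.090. With plain probe sets only, Ndufc1, the highest of the 78 members as reported, was -0.11, Cycs 0.028, Uqcrb -0.12, Uqcrq -0.16 and Cox5b 0.27; these are other probe sets of the same genes. Over left-out mice, Ndufa1 ran from -0.11 to 0.028, Cox7a2 from -0.062 to 0.054, Atp5g3 from -0.031 to 0.047, Uqcrb from -0.022 to 0.080 and Cox6a1 from -0.0048 to 0.096. Otherwise the cause was not tested. No paired analysis was possible because the groups share no mouse numbers. Dim probe sets (Cox7c, Cox6b2, Cox8c) and 4 mice per group limit the precision.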
